A study of Mus musculus with 28 samples.

Results

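The testis-specific serine kinases examined here are *Tssk1*, *Tssk2*, *Tssk3*, *Tssk4* and *Tssk6*, 5 of the 37122 mouse genes with transcripts in the expression table. They were chosen by name from the TSSK family, *Tssk5* of the same family was placed in the list of partners instead, and the RPKM values (reads scaled to transcript length and to mapped reads) of each gene's transcripts were summed. All 5 genes passed the filter on low values in every fit. RNA-seq was performed on germ cells sorted by Hoechst staining from male mice into 4 populations (spermatogonia, primary and secondary spermatocytes, and spermatids), and on whole testes. Animals labelled as knockouts carry a constitutive *Csmd1* allele in which exon 1 and part of intron 1 are replaced by a lacZ/neo cassette, and the controls are wildtype; the colony was of mixed 129SvEvBrd and C57BL/6 background according to the methods of the study. *Csmd1* encodes a large membrane protein with complement-interacting domains, and the comparison of genotypes asks what its loss does to gene expression in the testis. The sorted libraries number 20, from 3 wildtype mice (178, 351 and 648) and 5 knockout mice (286, 544, 550, 613 and 614), and the whole testes number 7, from wildtype mice 178 and 648 and knockout mice 214, 269, 273, 286 and 308. Males used for sorting were 40 ± 1 days old according to the methods, which do not name them, and the list of samples gives 40 days for mice 178 and 351. One testis of each sorted male was kept as whole tissue, so by the methods this age would extend to the whole testes of mice 178, 286 and 648. No age given by mouse was found for mice 286 and 648. Their testes had 1.16 and 0.681 RPKM of the protamine *Prm1*, against 603 RPKM in mouse 178, and their age was not tested. Whole testes of immature (20 days) and mature (40 days) males are also described, and no age for mice 214, 269, 273 and 308 was found in the sources used here.

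The TSSK kinases are small serine/threonine kinases made by male germ cells after meiosis, when round spermatids are remodelled into sperm. Their activity depends on the chaperone HSP90, and known substrates include TSKS, a scaffold of the spermatid cytoplasm, and ODF2, a protein of the outer dense fibres of the sperm tail. Male mice without *Tssk1* and *Tssk2*, without *Tssk3* or without *Tssk6* are infertile, and TSSK6 is needed for the condensation of sperm chromatin around protamines.

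*Tssk1* and *Tssk2* lie in tandem on the plus strand of chromosome 16 (GRCm38, chr16:17894223-17897922 and chr16:17898637-17900024), each as 1 exon, with 714 bases between them. *Tssk6* is a gene of 1 exon as well (chr8:69902184-69903518, plus strand). *Tssk3* has 2 exons (chr4:129489014-129491022, minus strand), and *Tssk4* has 3 or 4 exons in its transcripts of the table (chr14:55650184-55652539, plus strand). The coding sequences of *Tssk1* and *Tssk2* are identical at 81.0% of 1053 aligned bases, and every other pair of the 5 genes is identical at 57.8 to 64.1%. The longest run of bases shared by the *Tssk1* and *Tssk2* transcripts is 113 nt, against 11 to 13 nt for the other pairs, so that few reads could come from more than 1 member. A stretch of 375 of the 1335 bases of *Tssk6* (28.1%) overlaps *Ndufa13* on the opposite strand, and the sources do not say that reads were counted by strand. *Tssk1* overlaps *Dgcr2* on the opposite strand over 63 bases.

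Promoters, here the 250 bases before and the 50 bases from the start of a transcript, were taken for all 5 members from a RefSeq table (GRCm38.p6) with 1 window for each member. The windows of *Tssk3* and *Tssk4* lie inside the spans that RefSeq gives these genes (chr4:129489008-129491730 and chr14:55643651-55652539), so other starts of these 2 genes were not examined. The *Tssk3* window (chr4:129490721-129491020) also lies inside the *Tssk3* transcript of the expression table. It holds no base before the start of that transcript. The windows of the tandem pair are shown because a stretch just before their starts is alike, and those of *Tssk4* and *Tssk6* because these genes differed most from each other across libraries. Each runs 5′ to 3′ on the strand of its gene, and capitals mark TGACTTCA, or its complement TGAAGTCA, and TGACG. The intervals are chr16:17893953-17894252 for *Tssk1*, chr16:17898387-17898686 for *Tssk2*, chr14:55649934-55650233 for *Tssk4* and chr8:69901934-69902233 for *Tssk6*.
Tssk1: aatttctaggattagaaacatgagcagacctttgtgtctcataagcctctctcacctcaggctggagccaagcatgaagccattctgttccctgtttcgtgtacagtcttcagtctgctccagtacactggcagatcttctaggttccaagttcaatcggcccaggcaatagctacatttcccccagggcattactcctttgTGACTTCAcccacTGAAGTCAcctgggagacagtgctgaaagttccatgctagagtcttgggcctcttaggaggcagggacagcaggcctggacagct
Tssk2: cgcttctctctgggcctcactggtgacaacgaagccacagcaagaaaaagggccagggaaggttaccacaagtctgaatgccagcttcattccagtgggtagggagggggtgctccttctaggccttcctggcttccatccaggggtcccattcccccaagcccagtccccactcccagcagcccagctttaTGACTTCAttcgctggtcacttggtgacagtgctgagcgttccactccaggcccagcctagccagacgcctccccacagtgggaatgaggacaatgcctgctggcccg
Tssk4: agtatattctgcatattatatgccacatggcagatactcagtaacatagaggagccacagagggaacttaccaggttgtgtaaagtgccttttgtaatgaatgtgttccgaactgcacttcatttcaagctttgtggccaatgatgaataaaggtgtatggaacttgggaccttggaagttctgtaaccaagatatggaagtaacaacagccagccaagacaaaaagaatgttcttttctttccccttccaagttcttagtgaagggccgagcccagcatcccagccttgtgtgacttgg
Tssk6: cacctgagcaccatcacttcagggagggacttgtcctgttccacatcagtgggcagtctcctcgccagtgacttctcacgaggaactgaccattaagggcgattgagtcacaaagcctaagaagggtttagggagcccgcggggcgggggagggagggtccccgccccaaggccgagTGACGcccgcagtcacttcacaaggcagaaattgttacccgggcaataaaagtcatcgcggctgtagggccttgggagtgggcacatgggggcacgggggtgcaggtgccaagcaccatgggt

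In the best local alignment of the *Tssk1* and *Tssk2* promoters 41 of 52 columns (78.8%) were identical, and both copies hold TGACTTCA there, from base -48 in *Tssk1* and from base -58 in *Tssk2*. *Tssk1* holds it again on the opposite strand from base -35. This sequence was noticed in the printed promoters and then searched on both strands: 498 of 32851 promoters of the same length (1.52%) hold it. It differs from the cyclic AMP response element TGACGTCA, the sequence bound by the spermatid regulator CREM, which none of the 5 members holds and 1.79% of all promoters hold. The shorter core TGACG is present in *Tssk6* alone among the members, from base -73, and in 20.8% of all promoters. CCAAT is found in *Tssk3* and *Tssk4*, and in 37.4% of all promoters, and TATAAA in no member and 13.6% of all promoters. These matches describe the letters of the windows and do not show binding.

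Mapped reads were estimated at 23811334 to 61656514 per library in 27 of the 28 libraries, and could not be estimated for primary spermatocytes of mouse 613. The full-length *Csmd1* transcript had 0.028 to 0.629 RPKM in knockout testes and 0.025 to 0.264 RPKM in wildtype testes. In spermatids it had 0.37 to 2.0 RPKM in knockouts and 0.07 to 0.517 RPKM in wildtypes. These values cover the whole transcript of 14182 nt and the table used here gives none by exon, so they were not used to check the genotype, which is given here as labelled. By exon, the study reports that knockout testes had lower counts over most of the gene and higher counts in its last exons. Markers of the sorted stages showed libraries that stand apart. The library labelled spermatogonia of mouse 544 had 12400 RPKM summed over 6 late spermatid markers (*Prm1*, *Prm2*, *Tnp1*, *Tnp2*, *Odf1* and *Smcp*), against 9.01 to 578 RPKM in the other 3 spermatogonia libraries, and its spermatogonial markers were the lowest of the 4 (75.2 RPKM, against 198 to 442 RPKM). Spermatids of mice 286 and 648 had 524 and 608 RPKM of the late markers, against 8051 to 8671 RPKM in the other 3 spermatid libraries. Their round spermatid markers summed to 611 and 371 RPKM, against 928 to 1379 RPKM. Their primary spermatocyte markers summed to 603 and 963 RPKM, against 57.0 to 164 RPKM. *Prm1*, a protamine, was at 2.14 and 0.579 RPKM in spermatids of mice 286 and 648. Sertoli cell markers were at most 113 RPKM in the sorted libraries and reached 402 RPKM in whole testes. Other somatic markers were higher in spermatogonia of mouse 648 than in any whole testis. Leydig cell markers had 328 RPKM there, against at most 32.4 RPKM in whole testes. Macrophage markers had 59.8 against at most 9.74 RPKM, and peritubular and stromal markers 203 against at most 53.35 RPKM. Each of these lists was above every whole testis in further sorted libraries. Leydig cell markers had 83.1 RPKM in primary spermatocytes of mouse 613 and macrophage markers 18.5 RPKM in spermatogonia of mouse 178. Peritubular and stromal markers had 107.5 RPKM in secondary spermatocytes of mouse 286. The part of these markers, and of the late markers, in the results below was not tested.

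By RPKM on annotated transcript lengths, *Tssk2* was the most abundant member in most libraries of late stages. Its place above *Tssk1* rests on the 3700 nt annotated for *Tssk1*, a gene that spans 1451 nt in RefSeq. Spermatids of mouse 178 had 8272 reads of *Tssk1* and 6234 of *Tssk2*. In spermatids *Tssk2* was at 104 RPKM in mouse 178, 96.5 in mouse 351, 22.2 in mouse 648, 19.2 in mouse 286 and 184 in mouse 544. In secondary spermatocytes it was at 28 and 8.82 RPKM in wildtype mice 178 and 648, and at 9.10, 82.6 and 70.2 RPKM in knockout mice 286, 544 and 550. Within each of the 4 mice with both populations, spermatids were higher than secondary spermatocytes. Primary spermatocytes had 2.22 and 2.27 RPKM in mice 178 and 648, and 3.93, 8.05, 15.7 and 13.8 RPKM in mice 544, 550, 613 and 614. Spermatogonia had 6.21, 0.969 and 0.412 RPKM in mice 178, 648 and 286, and 216 RPKM in mouse 544. That last library, the one with 12400 RPKM of late spermatid markers, had more *Tssk2* than any spermatid library.

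*Tssk1*, the partner of *Tssk2* on chromosome 16, was likewise lowest in the later cells of mice 286 and 648. Spermatids had 51.5, 50.3 and 10.9 RPKM in wildtype mice 178, 351 and 648, and 11.0 and 73.7 RPKM in knockout mice 286 and 544. Secondary spermatocytes had 23.9 and 6.14 RPKM in mice 178 and 648, and 9.29, 37.1 and 34.3 RPKM in mice 286, 544 and 550. The highest value at each of these stages came from mouse 544. Primary spermatocytes had 4.11 and 2.49 RPKM in mice 178 and 648, and 1.97, 6.21, 11.6 and 10.7 RPKM in mice 544, 550, 613 and 614. Spermatogonia had 2.77, 0.289 and 0.357 RPKM in mice 178, 648 and 286, and 73.4 RPKM in mouse 544. The annotated *Tssk1* transcript is 3700 nt long while the RefSeq gene spans 1451 nt, and a level per kilobase depends on that length.

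*Tssk3*, a kinase needed for sperm formation, varied more between spermatid libraries. It was at 100.5, 50.2 and 3.52 RPKM in spermatids of wildtype mice 178, 351 and 648, and at 9.26 and 98.0 RPKM in those of knockout mice 286 and 544. Secondary spermatocytes had 16.0 and 1.62 RPKM in mice 178 and 648, and 9.22, 40.7 and 39.7 RPKM in mice 286, 544 and 550. In mouse 286 spermatids and secondary spermatocytes were nearly equal, a difference of 0.01 on the log2(RPKM + 0.1) scale. Primary spermatocytes had 1.87 and 0.345 RPKM in mice 178 and 648, and 2.94, 4.14, 8.53 and 8.94 RPKM in mice 544, 550, 613 and 614. Spermatogonia had 4.88, 0.189 and 0.191 RPKM in mice 178, 648 and 286, and 109 RPKM in mouse 544.

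*Tssk4*, whose product acts on ODF2 of the sperm tail, differed least between spermatid libraries. Its 2 transcripts in the table have values in the ratio of their lengths (0.842) within 0.03 in 26 of 28 libraries, as when the same reads are counted for each. In those libraries the sum therefore counts most reads once for each transcript, which leaves differences between them almost as they are but raises the level. The exceptions were the ovary (ratio 0.928) and primary spermatocytes of mouse 613 (ratio 0.204). The 1420 nt transcript alone was at 3.06 RPKM in primary spermatocytes of mouse 613 and 3.31 RPKM in those of mouse 614. Their sums were 3.69 and 6.10 RPKM. The summed value in spermatids was 47.9, 44.9 and 26.6 RPKM in wildtype mice 178, 351 and 648, and 40.9 and 58.2 RPKM in knockout mice 286 and 544. The transcript of 1420 nt alone had 26.0, 24.4, 14.3, 22.1 and 31.5 RPKM in the same order. Mouse 286, low for the other members, reached 85.4% of the *Tssk4* level of mouse 178 here. Secondary spermatocytes had a sum of 14.6 and 12.4 RPKM in mice 178 and 648, and of 11.3, 30.5 and 33.7 RPKM in mice 286, 544 and 550. Primary spermatocytes had 1.37 and 2.60 RPKM in mice 178 and 648, and 0.795, 3.96, 3.69 and 6.10 RPKM in mice 544, 550, 613 and 614. Every secondary spermatocyte and spermatid library was above every primary spermatocyte library. Spermatogonia had 2.95, 0.257 and 0.882 RPKM in mice 178, 648 and 286, and 50.5 RPKM in mouse 544.

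*Tssk6*, the kinase tied to chromatin condensation, was near or at 0 in every sorted library of mice 286 and 648. In spermatids it was at 35.4 and 28.3 RPKM in wildtype mice 178 and 351 and at 35.4 RPKM in knockout mouse 544, but at 0.061 RPKM in mouse 286 and 0 in mouse 648. The value of 3 reads, which a count of 0 still allows, was 0.0436 RPKM in that last library and covers counting error alone. Secondary spermatocytes had 5.34 and 0 RPKM in mice 178 and 648, and 0.083, 9.31 and 9.88 RPKM in mice 286, 544 and 550. Primary spermatocytes had 0.918 and 0 RPKM in mice 178 and 648, and 0.873, 2.17, 2.90 and 2.81 RPKM in mice 544, 550, 613 and 614. Spermatogonia had 2.21 RPKM in mouse 178, 0 in mice 648 and 286, and 46.0 RPKM in mouse 544. The gene on the other strand, *Ndufa13*, a subunit of respiratory complex I, was also lowest in mice 648 and 286 but not near 0, at 32.0, 31.8, 7.60, 9.96 and 42.2 RPKM in spermatids of mice 178, 351, 648, 286 and 544. In spermatids of mouse 648 *Tssk6* had 0 reads beside *Ndufa13* at 7.60 RPKM.

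**Figure D1:**
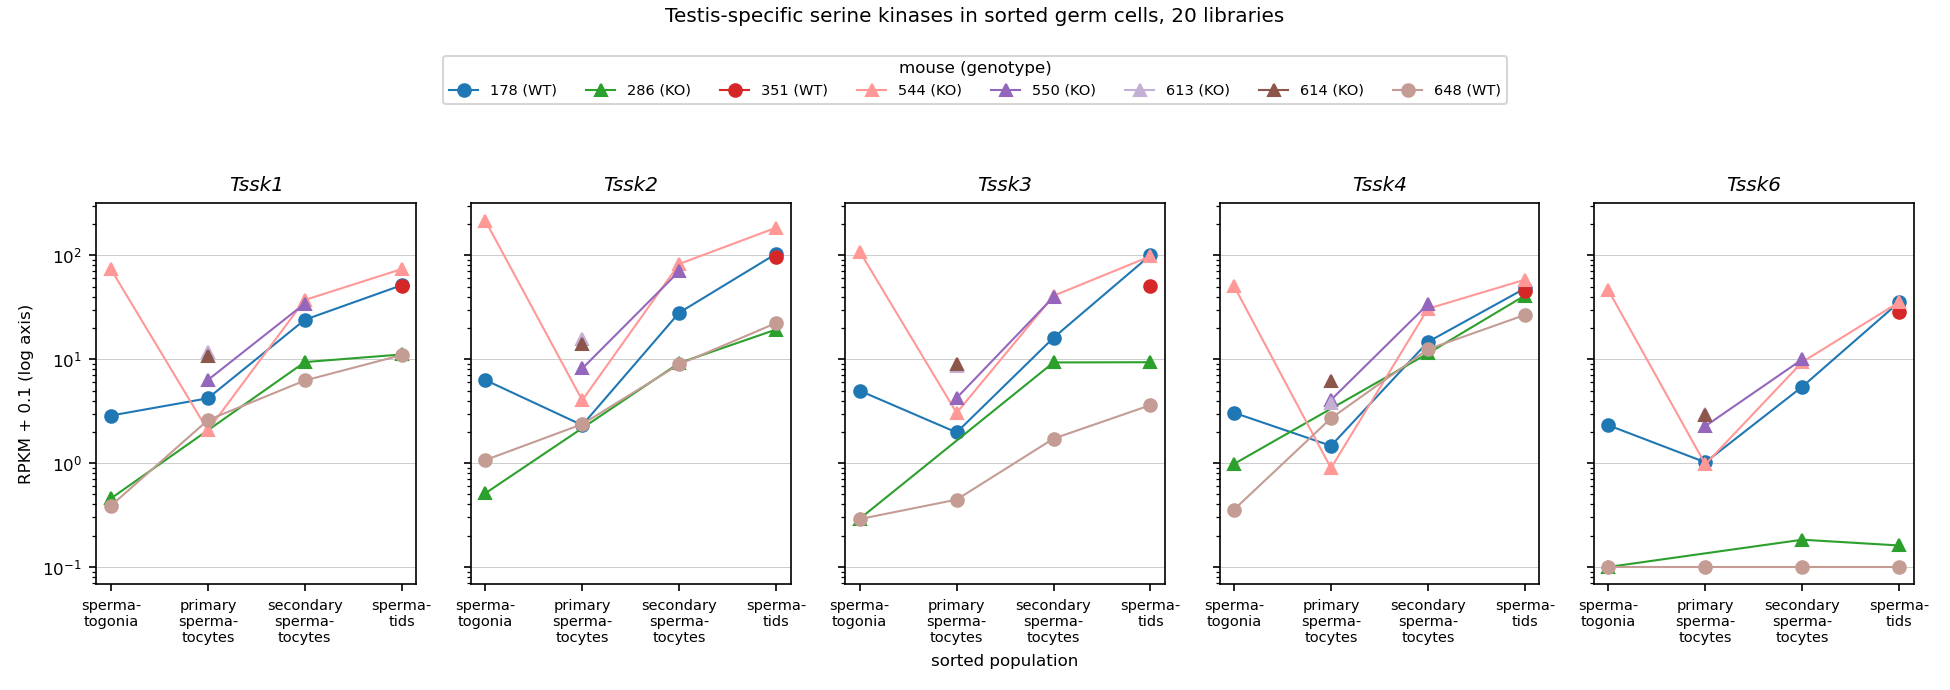
RPKM plus 0.1 (log axis) of the 5 kinases in the 4 sorted populations, with 1 point per library, circles for wildtype, triangles for knockout and lines joining the libraries of a mouse (the line of mouse 286 has no primary spermatocyte library). *Tssk1* to *Tssk4* are higher in spermatids than in primary spermatocytes of the same mouse, the spermatogonia library of mouse 544 sits at spermatid level in each panel, and *Tssk6* lies at the floor in mice 286 and 648.

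Read per kilobase in spermatids, the order of the members differed between mice. The place of *Tssk1* in each order rests on its annotated 3700 nt. A length of 1451 nt, its span in RefSeq, would raise its level, so its place is not settled here. In mouse 178 *Tssk2* (104 RPKM) and *Tssk3* (100.5) were above *Tssk1* (51.5), *Tssk6* (35.4) and the 1420 nt transcript of *Tssk4* (26.0). Over mice 178, 351 and 544 the ranges of *Tssk2* (96.5 to 184 RPKM) and *Tssk3* (50.2 to 100.5) overlapped, as did those of *Tssk3* and *Tssk1* (50.3 to 73.7) and those of *Tssk6* (28.3 to 35.4) and *Tssk4* (24.4 to 31.5). In mouse 286 the order was *Tssk4* (22.1 RPKM), *Tssk2* (19.2), *Tssk1* (11.0), *Tssk3* (9.26) and *Tssk6* (0.061), with *Tssk4* at the top in place of the last. In mouse 648 it was *Tssk2* (22.2 RPKM), *Tssk4* (14.3), *Tssk1* (10.9), *Tssk3* (3.52) and *Tssk6* (0).

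The comparisons of neighbouring stages ask at which step of spermatogenesis the kinase mRNAs change. Fitted over the 20 sorted libraries with limma, 0 of 5 members passed an adjusted p of 0.05 from spermatogonia to primary spermatocytes. At that threshold 26.6% of 22715 genes passed in either direction. At an unadjusted p under 0.05 there were 0 of 5 members and 8460 of 22715 genes. From primary to secondary spermatocytes 0 of 5 passed as well, where 2.81% of genes were called higher. An unadjusted p under 0.05 was reached by 4777 of 22715 genes and by 1 of 5 members. That member was *Tssk4*, with a log2 difference of 2.83 (SE 0.85, adjusted p = 0.0744), a 7.13-fold higher level. The differences of *Tssk1*, *Tssk2* and *Tssk3* at this step were 1.87, 2.39 and 2.31 (SE 1.08, 1.21 and 1.36), and that of *Tssk6* was 0.75 (SE 2.03). From secondary spermatocytes to spermatids 0 of 5 members passed, and 0% of all genes were called higher. Under an unadjusted p of 0.05 there were 0 of 5 members and 3596 of 22715 genes. The members' differences at this last step were 0.82 to 1.31. The median of all genes was -0.31, 0.28 and -0.33 at the 3 steps, and that of the 5 members -0.17, 2.31 and 1.30.

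Libraries of the same mouse share an animal, and a fit with the mouse as a replicate block changed the calls at the step from primary to secondary spermatocytes. *Tssk4* (log2 difference 3.12, SE 0.75, adjusted p = 0.0115) and *Tssk2* (2.82, SE 0.92, adjusted p = 0.0419) then rose, 2 of 5 members, where 14.5% of all genes were called higher. *Tssk3* and *Tssk1* had adjusted p of 0.0616 and 0.0694. Without mouse 286, *Tssk2* and *Tssk4* passed at this step (adjusted p = 0.0179 and 0.0133), where 6.23% of genes were called higher. Without the spermatogonia library of mouse 544, *Tssk4* passed at it (adjusted p = 0.0107), where 6.99% of genes were called higher. *Tssk1* was then higher in primary spermatocytes than in spermatogonia (2.72, adjusted p = 0.0305), where 11.0% of genes were called higher. Leaving out mouse 286 gave lower *Tssk2* in primary spermatocytes than in spermatogonia (-2.35), where 15.3% of genes were called lower, and leaving out mouse 544 gave higher *Tssk1* (2.99), where 9.59% were called higher. Without mice 286 and 648 together 4 of 5 members, *Tssk1* being the exception, were called higher in secondary than in primary spermatocytes, where 4.90% of genes were. The same fit gave lower *Tssk2*, *Tssk3* and *Tssk6* in primary spermatocytes than in spermatogonia (-3.0, -2.80 and -2.82), where 6.79% of genes were called lower, with the library of mouse 544 as 1 of the 2 spermatogonia libraries that remain. The step from spermatogonia to primary spermatocytes therefore has no stable direction for these genes. Libraries labelled spermatogonia also held primary spermatocyte markers at 304 to 1938 RPKM, against 241 to 2243 RPKM in primary spermatocyte libraries. The part of these markers in this step was not tested.

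Over a longer span the differences were larger. Spermatids against primary spermatocytes, a comparison added after the values were seen, gave 2 of 5 members higher, where 13.4% of genes were: *Tssk4* by 4.14 (SE 0.85, adjusted p = 0.00237) and *Tssk2* by 3.69 (SE 1.21, adjusted p = 0.0326) on the log2 scale. *Tssk1* and *Tssk3* had 2.69 and 3.62 (adjusted p = 0.0776 and 0.0598), and *Tssk6* had 2.03 (SE 2.03, adjusted p = 0.508). With the mouse as a block 4 of 5 members rose over this span, *Tssk6* being the exception (2.60, adjusted p = 0.156), where 18.9% of genes were called higher. Without mouse 286, and without the spermatogonia library of mouse 544, 4 of 5 passed, where 15.5 and 14.9% of genes were called higher. Without mice 286 and 648 together 5 of 5 passed, where 14.7% of genes did. Without mouse 178 0 of 5 passed, where 3.60% of genes did, and without mice 351, 550 or 648 in turn 1 of 5 passed, where 11.3, 11.3 and 9.81% of genes did. Spermatids against spermatogonia, also added, gave *Tssk4* (4.0, adjusted p = 0.00317), *Tssk1* (3.58, adjusted p = 0.0219) and *Tssk2* (3.53, adjusted p = 0.0405) higher, 3 of 5, where 13.7% of genes were. With the mouse as a block *Tssk3* passed too (3.35, adjusted p = 0.0118), 4 of 5, where 19.9% of genes were called higher. Without mice 178, 286 or 648 in turn 1 of 5 members passed, where 7.78, 3.70 and 5.26% of genes did. Without mice 286 and 648 together 0 of 5 passed, where 1.85% of genes did. Without the spermatogonia library of mouse 544 there were 4 of 5, where 19.4% of genes were called higher, with differences of 5.41 to 5.71 for *Tssk1* to *Tssk4*.

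Within mice the later cells could be set against the earlier cells of the same testis. In 5 mice the mean of secondary spermatocytes and spermatids was compared with that of spermatogonia with primary spermatocytes, as far as each mouse had them, by an exact permutation of the stages within mice (two-sided, 1296 arrangements, smallest p 0.000772). *Tssk4* was higher in the later cells in 5 of 5 mice, by 3.65, 4.46, 2.65, 3.06 and 4.22 log2 units in mice 178, 286, 544, 550 and 648 (mean 3.61 ± 0.76, SD, exact p = 0.00154). *Tssk2* was higher in 5 of 5 mice (mean 3.37 ± 0.97, range 2.07 to 4.70, exact p = 0.00231), as were *Tssk3* (3.30 ± 1.18, range 1.80 to 5.0, exact p = 0.00231) and *Tssk1* (3.08 ± 0.92, range 2.09 to 4.48, exact p = 0.00154). *Tssk6* was higher in 4 of 5 mice (1.51 ± 1.22, exact p = 0.0602), with 0 in all libraries of the fifth, mouse 648. By the same test 22.0% of 22715 genes were higher in the later cells with an exact p under 0.05. With Benjamini-Hochberg adjustment of the exact p over these genes, p was 0.0126 for *Tssk1* and *Tssk4*, 0.0143 for *Tssk2* and *Tssk3*, and 0.133 for *Tssk6*. Without the spermatogonia library of mouse 544 the *Tssk6* mean was 2.07 (exact p = 0.00926), where 24.5% of genes were higher. Without mice 286 and 648, which leaves 3 mice, 0 of 5 members had an exact p under 0.05 (0.0556 to 0.111), with means of 2.25 to 3.12, where 4.86% of genes were higher. Each of *Tssk1* to *Tssk4* was higher in secondary than in primary spermatocytes in 4 of 4 mice (178, 544, 550 and 648) and higher in spermatids than in secondary spermatocytes in 4 of 4 mice (178, 286, 544 and 648), by 0.01 log2 units for *Tssk3* in mouse 286. Mice with both steps number 3. The 4 genes went up from spermatogonia to primary spermatocytes in 1 or 2 of 3 mice. In bulk libraries of this kind more cells that express a gene and more mRNA per cell cannot be told apart.

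**Figure D2:**
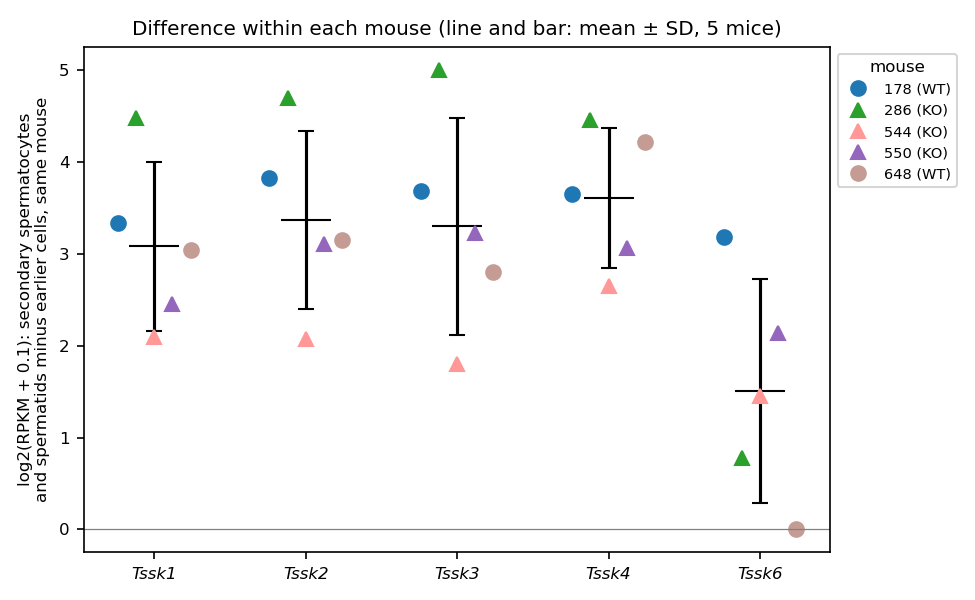
Difference of log2(RPKM + 0.1) between later cells (secondary spermatocytes and spermatids) and earlier cells (spermatogonia and primary spermatocytes) of the same mouse, with 1 point per mouse, circles for wildtype, triangles for knockout, and black lines with bars for the mean ± SD over 5 mice. Every mouse lies above 0 for *Tssk1* to *Tssk4*, and for *Tssk6* mouse 648 lies at 0.

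The members also differed in how closely they moved with the late spermatid markers. Spermatids of mouse 648 had 7.48% of the late marker sum of mouse 178, and those of mouse 286 had 6.45%. Most of what was left came from *Odf1* and *Smcp*, 2 genes of the sperm tail, at 54.0 and 46.7% of mouse 178, while *Prm1*, *Prm2*, *Tnp1* and *Tnp2*, which package sperm chromatin, summed to 0.250 and 0.185%. *Tssk6* in these 2 libraries was at 0 and 0.172% of its level in mouse 178, and *Tssk3* at 3.50 and 9.22%. *Tssk1* kept 21.1 and 21.4%, *Tssk2* 21.5 and 18.6%, and *Tssk4* 55.5 and 85.4%. The round spermatid marker sum of these libraries was 30.3 and 49.8% of that of mouse 178. These shares depend on the library they are read against. With mouse 351 as the reference *Tssk3* was at 7.0 and 18.4%, and *Tssk2* at 23.0 and 19.9%. With mouse 544 as the reference *Tssk3* was at 3.59 and 9.45%, and *Tssk2* at 12.04 and 10.4%. *Tssk4* was highest and *Tssk6* lowest against each of the 3 libraries, in both mice, while *Tssk2* and *Tssk3* were close in mouse 286 against mice 351 and 544. In secondary spermatocytes of mouse 286 *Tssk3* was at 57.5%, *Tssk1* at 38.9% and *Tssk2* at 32.5% of mouse 178. Against mice 544 and 550 *Tssk3* was at 22.6 and 23.2% there, below *Tssk1* at 25.03 and 27.1%, and in mouse 648 *Tssk3* (10.1%) was below *Tssk1* (25.7%) against mouse 178 as well. Across the 27 testis and germ cell libraries Pearson's r between members on the log2 scale ran from 0.652 for *Tssk4* with *Tssk6* to 0.963 for *Tssk1* with *Tssk2*, a description over libraries that share mice.

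**Figure D3:**
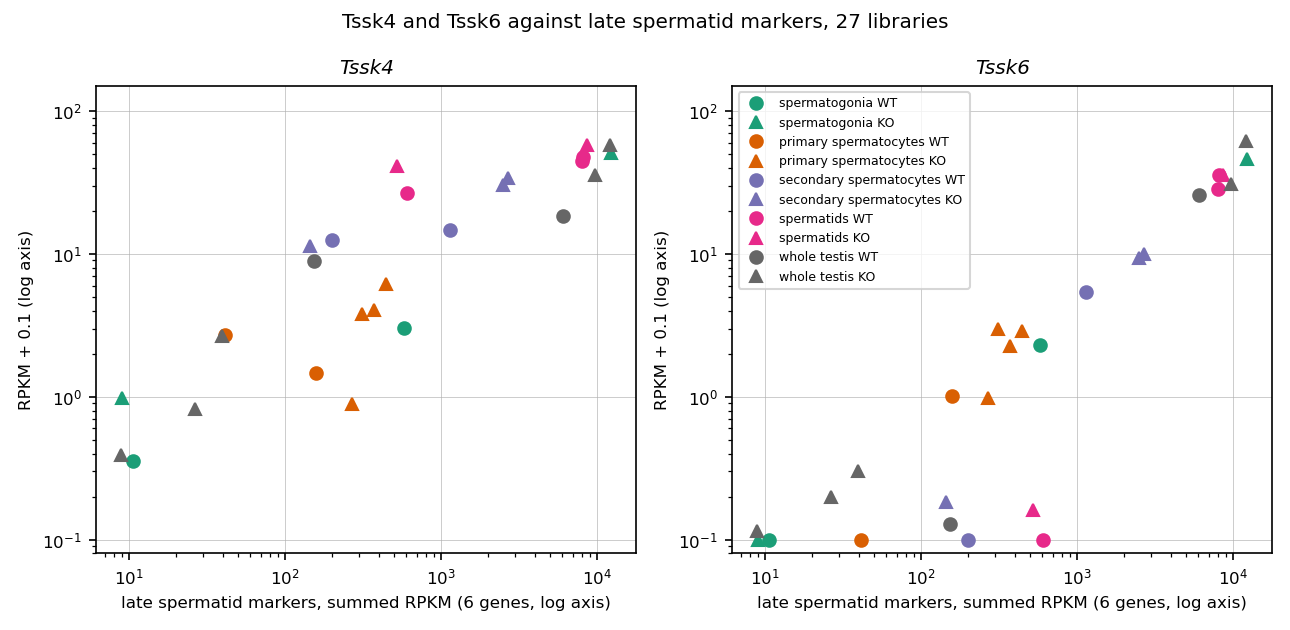
*Tssk4* (left) and *Tssk6* (right) as RPKM plus 0.1 against the summed RPKM of 6 late spermatid markers, both on log axes, in 27 libraries coloured by population, circles for wildtype and triangles for knockout. Spermatids of mice 286 and 648, at 524 and 608 RPKM of late markers, of which *Prm1*, *Prm2*, *Tnp1* and *Tnp2* make up 13.02 and 17.6 RPKM, have 40.9 and 26.6 RPKM of *Tssk4* but 0.061 and 0 RPKM of *Tssk6*.

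Whole testes divided in the same way for each member, across genotypes. *Tssk2* was at 61.9 and 6.52 RPKM in testes of wildtype mice 178 and 648, and at 108, 1.71, 162, 3.76 and 0.460 RPKM in those of knockout mice 214, 269, 273, 286 and 308. *Tssk6* was at 25.7 and 0.028 RPKM in the wildtypes and at 31.0, 0.10, 61.4, 0.204 and 0.015 RPKM in the knockouts. Testes of mice 178, 214 and 273 were above the other 4 for all 5 members. Those 3 also had 6082 to 12120 RPKM of late spermatid markers, against 8.91 to 155 RPKM in the other 4. Sertoli cell markers ran the other way, at 57.4 to 66.3 RPKM in those 3 against 117 to 402 RPKM. Primary spermatocyte markers did so too (217 to 592.5 against 817 to 2559 RPKM), as did spermatogonial markers (16.1 to 27.5 against 42.7 to 131 RPKM). Peritubular and stromal markers were at 5.71 to 8.85 against 15.4 to 53.35 RPKM. Not all somatic markers ran the other way. Leydig cell markers were higher in those 3 testes, at 19.3 to 32.4 against 8.43 to 18.3 RPKM, and macrophage markers overlapped, at 6.52 to 8.57 against 5.07 to 9.74 RPKM. *Tssk1* spanned 1.26 to 63.5 RPKM in the knockouts against 4.28 and 22.4 RPKM in the wildtypes, *Tssk3* 0.338 to 86.4 against 0.969 and 55.0 RPKM, and the *Tssk4* sum 0.294 to 57.9 against 8.84 and 18.3 RPKM. Each knockout range therefore enclosed the wildtype values.

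**Figure D4:**
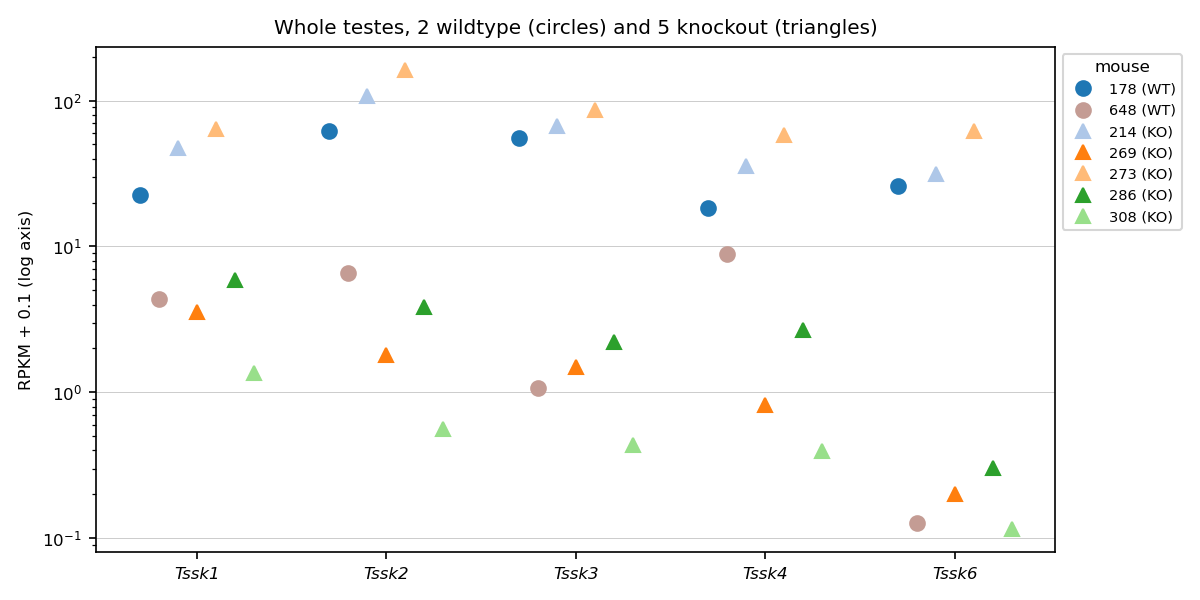
RPKM plus 0.1 (log axis) of the 5 kinases in whole testes, with 1 point per mouse, circles for the 2 wildtype and triangles for the 5 knockout mice. Mice 178, 214 and 273 lie above mice 648, 269, 286 and 308 for every kinase.

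The comparison of genotypes asks whether loss of *Csmd1* changes these kinases. In whole testes 0 of 5 members passed an adjusted p of 0.05 in limma, where 0% of 22763 genes passed. At an unadjusted p under 0.05 there were 0 of 5 members and 2492 of 22763 genes. Knockout minus wildtype was -0.03 (SE 1.46) for *Tssk1*, -1.13 (SE 2.15) for *Tssk2*, -0.33 (SE 2.24) for *Tssk3*, -1.52 (SE 1.84) for *Tssk4* and -0.11 (SE 2.87) for *Tssk6* on the log2 scale, against a median of 0.39 over all genes. Exact permutation p, two-sided over 21 arrangements with a smallest p of 0.0476, ran from 0.571 for *Tssk4* to 1.0 for *Tssk1*. Standard errors above 1 log2 unit leave room for changes of several fold in either direction. Among the 6 testes quantified together, with 1 wildtype, the differences were -1.21 to -3.94, and no wildtype spread could be had.

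In sorted cells, averaged over the 4 stages, 0 of 5 members passed, where 0.00880% of genes passed. An unadjusted p under 0.05 was found for 0 of 5 members and for 1763 of 22715 genes. The differences of *Tssk1*, *Tssk2*, *Tssk3*, *Tssk4* and *Tssk6* were 1.05, 1.31, 1.81, 1.11 and 1.43 (SE 0.79, 0.89, 1.0, 0.63 and 1.49), with a median of 0.22 over all genes. By stage, spermatogonia differed by 2.02 to 2.76, primary spermatocytes by 0.61 to 2.72, secondary spermatocytes by 0.75 to 2.23 and spermatids by -0.96 to 0.34, with 0 of 5 members passing in any stage and 0 genes called. Without mouse 286 the knockout spermatogonia are the library of mouse 544 alone, the one with 12400 RPKM of late spermatid markers, and its spread is taken from the other groups. The differences of *Tssk1*, *Tssk2* and *Tssk4* at that stage (6.12, 6.38 and 5.60) then had an adjusted p under 0.05, as had 5.45% of genes in that direction, and rest on that library. Without mouse 286 the averages of *Tssk1*, *Tssk2*, *Tssk3* and *Tssk4* passed (2.47, 3.06, 3.48 and 2.01, adjusted p = 0.0313, 0.0142, 0.0330 and 0.0426), where 4.32% of genes were called higher, and without mouse 544 those of *Tssk1*, *Tssk2* and *Tssk6* were below 0. Without the spermatogonia library of mouse 544 the 5 averages were 0.14 to 0.74, with adjusted p of at least 0.917. Within libraries quantified together the sign depended on the animals: spermatids of mouse 286 against those of mice 178 and 351 gave -7.62 to -0.18, while primary spermatocytes of mouse 614 against those of mouse 648 gave 1.20 to 4.86. No interaction of genotype and step passed for a member (adjusted p of at least 0.732), and the share of all genes that passed is not given here.

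Of 10 partners and substrates of the kinases, 1 rose from primary to secondary spermatocytes, where 2.81% of all genes did, and 0 fell, where 0.150% did. It was *Tssk5*, itself a kinase of the family, by 2.98 log2 units (SE 0.71, adjusted p = 0.0367). Spermatids had 4.32, 9.04, 1.64, 5.77 and 8.06 RPKM of it in mice 178, 351, 648, 286 and 544, and primary spermatocytes had 0.013 to 0.690 RPKM. *Tsks*, the substrate of TSSK1 and TSSK2, was at 103, 186, 4.79, 16.4 and 225 RPKM in the same spermatids. Between primary spermatocytes and spermatids 2 of 10 rose, *Tssk5* by 4.48 and *Tsks* by 4.35 (adjusted p = 0.000505 and 0.0340), where 13.4% of all genes did. *Tsacc*, a co-chaperone that links TSSK6 to HSP90, did not pass over that span (0.58, SE 0.70, adjusted p = 0.587) and was already at 103 to 590 RPKM in primary spermatocytes. *Hsp90ab1* fell from spermatogonia to primary spermatocytes by 1.38 (adjusted p = 0.0262), and *Spag16*, a protein of the sperm axoneme, rose there by 2.15 (adjusted p = 0.00671), 1 of 10 in each direction, where 19.1% of all genes fell and 7.54% rose. Between spermatogonia and spermatids 5 of 10 rose and 1 fell, where 13.7% of all genes rose and 26.3% fell. Those that rose were *Tssk5* (3.75), *Tsks* (4.12), *Odf2* (2.72), *Spag16* (2.31) and *Tsacc* (2.15, adjusted p = 0.0312), and *Hsp90ab1* fell by 2.0. The median of the list was 0.26 from primary to secondary spermatocytes, against 2.31 for the 5 members and 0.28 for all genes.

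Of 12 other kinases of germ cells 2 rose from spermatogonia to primary spermatocytes, *Nek2*, a centrosomal kinase, by 1.82 (adjusted p = 0.00803) and *Stk33* by 1.96 (adjusted p = 0.0231), where 7.54% of all genes rose. At each of the next 2 steps 0 of 12 passed, where 2.81 and 0% of all genes rose, with medians of 0.25 and -0.24 against 0.28 and -0.33 for all genes. Between primary spermatocytes and spermatids 1 of 12 rose and 2 fell, where 13.4% of all genes rose and 12.7% fell. *Hipk4*, a kinase of spermatid head shaping, rose by 3.78 (SE 0.86, adjusted p = 0.00443), and its spermatids had 47.3, 28.3, 14.0, 34.2 and 60.3 RPKM in mice 178, 351, 648, 286 and 544. *Stk31* fell by 2.62 (adjusted p = 0.00173) and *Cdk1*, the kinase that drives entry into division, fell by 1.80 (adjusted p = 0.0132). Between spermatogonia and spermatids 3 of 12 rose, *Hipk4* (3.59), *Mak* (2.50) and *Stk33* (1.98), and *Stk31* fell by 2.24, where 13.7% of all genes rose and 26.3% fell. *Hipk4* in mouse 286, at 34.2 RPKM, was above its level in mouse 351, as *Tssk4* came near to its level there and *Tssk6* did not.

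The genes whose pattern was most like each member were sought among 14635 genes that averaged 1 RPKM or more across 27 testis and germ cell libraries, leaving out the other members. For *Tssk2* they were *Tmem247*, *Zdhhc25* and *Scp2d1* (Pearson's r 0.991, 0.991 and 0.990), and for *Tssk1* *Fndc11*, *Akap3* and *Ccdc70* (0.985, 0.983 and 0.983). For *Tssk3* they were *Irgc1*, *Znrf4* and *Spaca4* (0.991, 0.988 and 0.988). For *Tssk4* they were *Armc12*, *Zfp474* and *Fam71d* (0.987, 0.987 and 0.980), and for *Tssk6* *1700016C15Rik*, *Ubqlnl* and *Ttc24* (0.992, 0.989 and 0.988). No gene stood in more than 1 of these lists. *Armc12* was at 48.8 and 27.4 RPKM in spermatids of mice 178 and 648, while *1700016C15Rik* was at 52.9 and 0 RPKM. The libraries share mice and stages, so these coefficients describe likeness over these libraries alone.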

How the data were processed

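Mouse polyadenylated RNA was sequenced from 20 sorted germ cell libraries, 7 whole testes and 1 ovary. The authors mapped 2 × 101 bp paired-end reads with TopHat2 to Ensembl release 72 transcripts (GRCm38) and deposited RPKM values for 94480 transcripts, 1 column per library. The study names PEER to adjust RPKM values and PoissonSeq to test them, and neither was run here. In 27 columns 93.2 to 94.6% of low values fell on whole reads (within 0.06 of a read, against 12.0% by chance), which gave the mapped reads per library (23811334 to 61656514). These set the value of 3 reads and entered no test. Libraries with the same missing transcripts (4 sets) are called quantified together.

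Transcripts were summed per gene with GENCODE M21, which matched 90339 of 94480 identifiers (95.6%). Genes with a mean of at least 0.1 RPKM were tested on log2(RPKM + 0.1), so that fold changes of low genes are understated, with limma 3.58.1 in R 4.3.3 (eBayes with trend, Benjamini-Hochberg over all genes tested). Sorted libraries were fitted in 8 groups of stage by genotype and whole testes in 2 groups. The mouse is the unit of replication, but limma fits of sorted libraries other than the block fit count each library as a replicate. Single values were tested by exact permutation in Python 3.11.15. Pairing by mouse comes from the labels: residuals correlated with a median of 0.54 within mice (22 pairs) and -0.06 between mice (151 pairs), and the block fit took a correlation of 0.401. The fits were tested on simulated data with independent noise and no effect of the mouse. That does not test them for libraries that share a mouse.

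Genes named are the members, a list of partners and substrates, a list of other germ cell kinases and, per member, the 3 genes with the highest Pearson's r over 27 libraries. The members and lists were chosen with earlier results of these data known. Alternatives were pseudocounts of 0.01 and 1 RPKM, quantile normalization, no filter, transcripts with a value in every library, single genotypes, a replicate block and each mouse left out. The fits without the spermatogonia library of mouse 544 and without mice 286 and 648, and the comparisons of spermatids with primary spermatocytes and with spermatogonia, were added after seeing the data.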

Additional observations from a re-analysis of the deposited data

Results flagged for a closer look

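The ovary, which no comparison used, held reads of 4 members above the value of 3 reads in that library. *Tssk6* was at 0.639 RPKM (45 reads) there, above its level in 11 of 27 germ cell and testis libraries, and *Ndufa13* on the opposite strand of *Tssk6* was at 77.8 RPKM in the same ovary. *Tssk4* summed to 0.746 RPKM, *Tssk1* was at 0.065 RPKM and *Tssk2* at 0.055 RPKM. These are values of 1 library with no replicate. A test for a sample far from the others was made for the 5 members in 2 groups, knockout primary spermatocytes (4 libraries) and knockout whole testes (5 libraries), and marked none. Groups of 3 or fewer libraries, those with the spermatogonia library of mouse 544 included, were not tested in this way. None of the 15 interactions of genotype and stage step passed for a member. The share of all genes is given neither for these interactions nor for the test of far samples. Neither result can therefore be read as particular to the members.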

How the results depend on the processing

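Most results kept their direction and their side of the threshold. The step from spermatogonia to primary spermatocytes did not, and the cause was not tested. With each mouse left out in turn its log2 difference ran from -0.94 to 2.99 for *Tssk1*, -2.35 to 2.21 for *Tssk2*, -2.31 to 2.11 for *Tssk3*, -1.56 to 1.57 for *Tssk4* and -2.53 to 2.08 for *Tssk6*, with 0 to 1 members called (*Tssk2* lower without mouse 286, as were 15.3% of genes, and *Tssk1* higher without mouse 544, as were 9.59%). Quantile normalization gave 0.38, 0.36, 0.42 and 0.08 for *Tssk2*, *Tssk3*, *Tssk4* and *Tssk6*, a pseudocount of 0.01 RPKM gave 0.46 for *Tssk6*, wildtype libraries gave 0.93 for *Tssk4* and knockout libraries 0.00 for *Tssk3*. Without the spermatogonia library of mouse 544 those 4 members had 2.01, 1.96, 1.28 and 1.90, with 1 member called (11.0% of genes higher), and without mice 286 and 648 *Tssk1* had -1.49, with 3 called (6.79% of genes lower). At the step to secondary spermatocytes the replicate block called 2 members (14.5% of genes higher), the fit without mice 286 and 648 called 4 (4.90%), that without the spermatogonia library of mouse 544 called 1 (6.99%), and those without 1 mouse called 0 to 2 (6.23% without mouse 286). The block changed no member's call at the other 2 steps or between genotypes. From secondary spermatocytes to spermatids *Tssk6* had -0.21 to 2.26 with a mouse left out and -0.11 in knockout libraries, and from primary spermatocytes to spermatids -0.10 to 3.97. Between genotypes in whole testes, leaving out a mouse gave -1.21 to 1.15 for *Tssk1*, -2.74 to 0.48 for *Tssk2*, -3.17 to 2.51 for *Tssk3* and -3.94 to 3.71 for *Tssk6*. A pseudocount of 1 RPKM gave 0.07 for *Tssk1* and a pseudocount of 0.01 RPKM gave 0.05 for *Tssk6*. In sorted cells the calls between genotypes depended on the mouse left out, in fits that count each library as a replicate. Leaving out a mouse gave -0.16 to 2.47 for *Tssk1*, -0.23 to 3.06 for *Tssk2* and -0.97 to 3.99 for *Tssk6*. The exact test within mice called 4 members (22.0% of genes higher), 4 to 5 without 1 mouse (16.4 to 21.1%), and 0 without mice 286 and 648 (4.86%), where the 3 mice left gave means of 2.25 to 3.12 and p of 0.0556 to 0.111. Depth is not given for primary spermatocytes of mouse 613, and the doubled counting of *Tssk4* transcripts raises its summed level.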
